A study of Mus musculus with 48 samples.

Results

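The outermost cells of the epidermis are shed when serine proteases cut the junctions that hold them together, and 10 mouse genes of this system were followed here in aged and adult epidermis. They were 7 kallikrein genes (Klk5, Klk6, Klk7, Klk8, Klk10, Klk11 and Klk13), the inhibitor gene Spink5, the membrane protease gene St14 and its inhibitor gene Spint1. The members were the rows of the count matrix whose Entrez identifier maps to these symbols. Each of the 10 matched 1 of the 24996 rows, and all 10 passed the filter on low counts that left 18044 genes. Total RNA had been sequenced from epidermal cell suspensions of aged mice (80 to 90 weeks old) and adult mice (18 to 25 weeks old), killed at Zeitgeber time (ZT) 0, 4, 8, 12, 16 or 20, counted in hours from lights on. With 4 libraries at each time and age there were 24 aged and 24 adult libraries. The labels name neither strain nor sex. The labels do not say that replicates are separate animals, so p-values measure the spread between these libraries, which may be technical.

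Kallikrein-related peptidases are secreted as inactive precursors by keratinocytes of the granular layer and are switched on in the cornified layer by other proteases. There they cut corneodesmosin and the desmosomal cadherins, the proteins that rivet dead cells to each other, and so set the pace of shedding. Spink5 encodes LEKTI, a secreted inhibitor of several kallikreins, and its loss in people causes Netherton syndrome, a disease of early shedding and a broken skin barrier. St14 encodes matriptase, a membrane-bound protease that can activate precursors of other proteases, and Spint1 encodes its Kunitz-type inhibitor at the cell surface.

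The kallikrein members lie head to tail on the plus strand of chromosome 7, within 138.6 kb (chr7:43712567-43851181, GRCm38, GENCODE M21), in the order Klk13, Klk11, Klk10, Klk8, Klk7, Klk6 and Klk5, with Klk12 and Klk9 between them. The stretches just before the start sites of Klk7 and Klk8 are shown because these neighbours had the lowest aged levels relative to adult among the well expressed kallikreins, and a stretch of Klk11 because that gene did not pass the age test. Of the 2 listed starts of Klk11 the second is shown, since the window of the first holds 13 bases of annotated UTR. Each holds the 250 bases before a RefSeq start (GRCm38, plus strand, read 5′ to 3′), and capitals mark matches to a GC box (GGGCGG) or a CACCC box (CCACCC) on either strand.
Klk7, chr7:43811044-43811293: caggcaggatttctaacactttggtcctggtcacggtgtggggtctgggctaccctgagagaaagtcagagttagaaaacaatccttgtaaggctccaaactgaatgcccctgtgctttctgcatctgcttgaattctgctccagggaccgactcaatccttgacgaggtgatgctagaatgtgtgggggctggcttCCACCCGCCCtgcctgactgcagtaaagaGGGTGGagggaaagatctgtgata
Klk8, chr7:43797327-43797576: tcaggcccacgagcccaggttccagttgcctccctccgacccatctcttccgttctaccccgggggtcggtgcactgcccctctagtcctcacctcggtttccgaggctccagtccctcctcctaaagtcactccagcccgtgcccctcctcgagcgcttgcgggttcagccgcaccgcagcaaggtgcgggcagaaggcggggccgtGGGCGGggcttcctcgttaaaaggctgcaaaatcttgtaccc
Klk11, chr7:43776079-43776328 (the second of its listed starts): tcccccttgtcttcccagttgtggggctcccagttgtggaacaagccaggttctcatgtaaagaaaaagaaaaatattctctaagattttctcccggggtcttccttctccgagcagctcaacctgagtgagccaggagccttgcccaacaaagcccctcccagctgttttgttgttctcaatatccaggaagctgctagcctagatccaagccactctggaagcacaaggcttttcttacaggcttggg
In the Klk7 stretch a GC box overlapped 1 of 2 CACCC boxes, and the Klk8 stretch held 1 GC box. The CACCC box did not divide the genes by the age test. The first Klk11 start and Klk10, which also did not pass, held 2 CACCC boxes each, and Klk5, which passed, held 1. GC boxes were found before Klk6, Klk7, Klk8 and Spint1, which passed, and not before Klk10 or either Klk11 start. Klk5 and Klk13, which passed, had no GC box. Spink5 and St14, which also passed, were not searched, and a link of the motifs to age was not tested. A GC box was found in 32.7% and a CACCC box in 28.1% of the 32851 listed starts of all genes in the same window. No match was found in these 3 stretches to CACGTG (the canonical E-box), GGAATG (the TEAD site), TGANTCA (the AP-1 site) or TATAAA (the TATA box), on either strand. These motifs were chosen with the sequences and results in view, and the share of all windows that held them was 6.02%, 12.6%, 6.75% and 12.4%.

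Levels can be compared between genes only per length, and are given here as read counts scaled to the library's total (CPM) per kb of annotated exon. Spink5 had the highest median level in both ages, with 78.5 CPM per kb in aged and 125 CPM per kb in adult libraries. In aged epidermis Klk5 (36.5), Klk11 (33.7) and Klk7 (31.0) followed, in medians of CPM per kb. These 3 neighbours in the order were not separated: Klk5 was above Klk11 in 16 of 24 aged libraries and Klk11 above Klk7 in 13 of 24. In adult epidermis the order was Klk7 (65.3), Klk5 (53.9) and Klk11 (33.5), with Klk7 above Klk5 in 14 of 24 libraries and Klk5 above Klk11 in 23 of 24. Klk8 had 13.7 in aged and 23.0 in adult, Spint1 19.6 in aged and 21.8 in adult, Klk10 11.3 in aged and 11.7 in adult, and St14 7.50 in aged and 8.74 CPM per kb in adult. Klk6 and Klk13 were scarce, at 0.810 and 0.136 CPM per kb in aged and 1.28 and 0.230 CPM per kb in adult libraries. Klk13 rested on 4 to 68 reads per aged library and 7 to 93 per adult library, so its values carry more counting error than those of the other members.

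**Figure D1:**
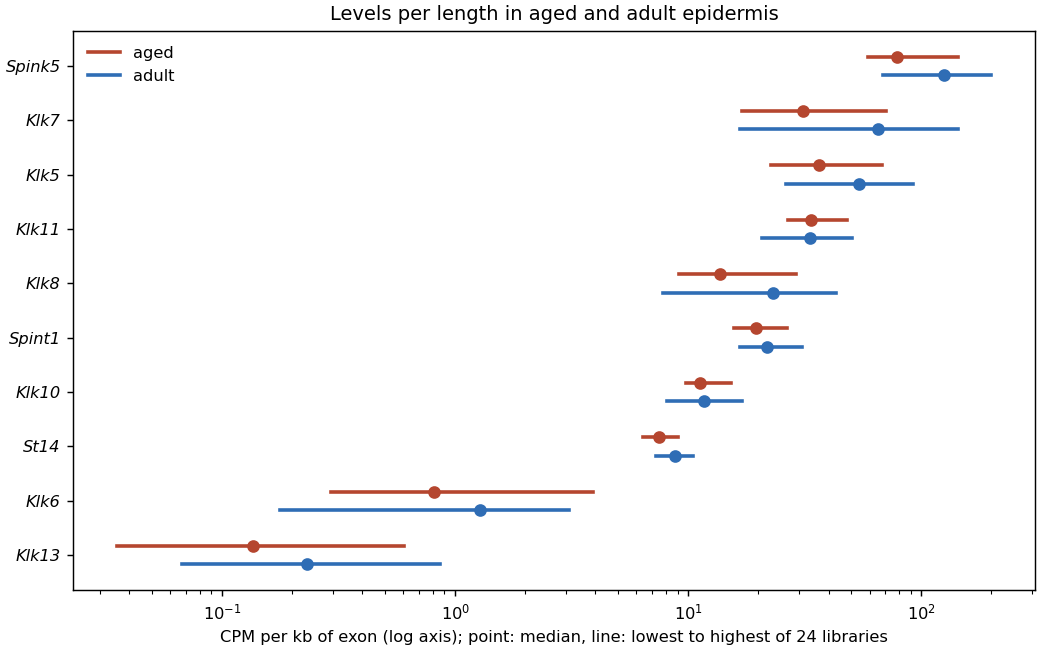
Level of each member per kb of exon on a log axis, aged above adult; the point is the median and the line runs from the lowest to the highest of 24 libraries. Spink5 stands highest in both ages and Klk13 lowest, and Klk7 and Klk5 stand above Klk11 in adult libraries but not apart from it in aged ones.

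Over all times 8 of the 10 members were lower in aged than in adult epidermis and 0 were higher. Among all 18044 genes 16.2% were called lower and 33.1% were called in either direction, at an adjusted p under 0.05 in edgeR's quasi-likelihood test. The median log2 fold change, aged over adult, was -0.51 over the 10 members and 0.01 over all genes tested. The 8 that passed were Klk5, Klk6, Klk7, Klk8, Klk13, Spink5, St14 and Spint1, and the pair that did not were Klk10 and Klk11. The lower level of Klk7 was known from these data when the members were chosen, so the count is a description.

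Klk7, the chymotrypsin-like kallikrein of the cornified layer, had 32.3, 58.7 and 134 CPM as its lowest, median and highest values in aged libraries, against 31.5, 124 and 272 CPM in adult libraries. The ranges overlapped at the low end, but 23 of 24 aged libraries lay under the adult median and 9 adult libraries lay above every aged one. Its log2 fold change was -0.98 (SE 0.16; edgeR adjusted p = 1.6e-05). Klk5, a trypsin-like kallikrein that can activate itself and other kallikrein precursors, had 30.2, 48.7 and 90.5 CPM in aged libraries, against 35.1, 72.0 and 123 CPM in adult ones. Of the aged libraries 21 of 24 lay under the adult median, and the log2 fold change was -0.56 (SE 0.12; edgeR adjusted p = 7.3e-04). Klk8, a trypsin-like kallikrein also known as neuropsin, had 14.1, 21.1 and 44.5 CPM in aged libraries, against 12.1, 35.4 and 66.1 CPM in adult ones. Again 23 of 24 aged libraries were under the adult median, with a log2 fold change of -0.69 (SE 0.13; edgeR adjusted p = 1.6e-04).

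The scarce members were also lower, with wider errors. Klk6, a trypsin-like kallikrein also made in the brain, had 0.442, 1.23 and 5.90 CPM in aged libraries, against 0.269, 1.93 and 4.66 CPM in adult ones. The ranges overlapped widely, and the log2 fold change was -0.63 (SE 0.23; edgeR adjusted p = 0.0334). That call was lost (adjusted p up to 0.0697) without any 1 of 7 libraries: aged ZT20 replicate 1, adult ZT4 replicate 2, adult ZT8 replicate 1, adult ZT12 replicates 3 and 4, adult ZT16 replicate 1 and adult ZT20 replicate 3. Klk13 had 0.0813, 0.312 and 1.38 CPM in aged libraries, against 0.154, 0.529 and 1.98 CPM in adult ones, with 22 of 24 aged libraries under the adult median. Its log2 fold change was -0.95 (SE 0.26; edgeR adjusted p = 0.0050).

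Klk10 and Klk11 did not pass. Klk10 had 13.5, 15.5 and 20.9 CPM in aged libraries, against 11.2, 16.1 and 23.5 CPM in adult ones, a log2 fold change of -0.06 (95% interval -0.21 to 0.09; edgeR adjusted p = 0.540). Klk11, a trypsin-like kallikrein at nearly the level of Klk5 in aged epidermis, had 39.5, 49.4 and 70.4 CPM in aged libraries, against 30.4, 49.1 and 74.1 CPM in adult ones. Its log2 fold change was 0.07 (95% interval -0.08 to 0.23; edgeR adjusted p = 0.475), and 12 of 24 aged libraries lay under the adult median. These intervals do not reach the estimate of any of the 5 kallikreins that passed. The 95% interval of Klk6 (-1.10 to -0.16) overlapped that of Klk10, and the genes were not tested against each other.

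The inhibitors and matriptase lie on other chromosomes (GRCm38): Spink5 at chr18:43963235-44022501, St14 at chr9:31089402-31131853 and Spint1 at chr2:119237362-119249527. Their fitted differences were smaller than those of the kallikreins that passed, which was not tested. Spink5 had 284, 375 and 689 CPM in aged libraries, against 328, 597 and 952 CPM in adult ones, with 22 of 24 aged libraries under the adult median. Its log2 fold change was -0.46 (SE 0.10; edgeR adjusted p = 7.3e-04). St14 had 49.1, 57.3 and 69.2 CPM in aged libraries, against 55.3, 66.8 and 80.3 CPM in adult ones. The difference was small but even over libraries, with 22 of 24 aged ones under the adult median and a log2 fold change of -0.21 (SE 0.04; edgeR adjusted p = 4.2e-05). Spint1 had 43.3, 54.2 and 73.1 CPM in aged libraries, against 46.1, 60.4 and 84.9 CPM in adult ones, a log2 fold change of -0.18 (SE 0.05; edgeR adjusted p = 0.0045). Without the ZT20 libraries Klk6 (adjusted p = 0.155) and Spint1 (0.0547) did not pass, and the other 6 did, with log2 fold changes between -0.92 for Klk13 and -0.20 for St14.

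Along chromosome 7 the kallikreins that passed formed an unbroken run and 1 separate gene. Klk8, Klk7, Klk6 and Klk5 are neighbours in 53.6 kb (chr7:43797577-43851181, GRCm38), and all 4 were lower. On their Klk8 side lie Klk9, Klk10, Klk11 and Klk12, none of which passed, with log2 fold changes of -0.23, -0.06, 0.07 and 0.04. Klk13 beyond them was lower, and Klk14 after it was not called (0.04, SE 0.19; edgeR adjusted p = 0.902). The long antisense transcript 2310002F09Rik overlaps Klk13, Klk12, Klk11, Klk10, Klk9, the end of Klk14 and the first 382 bases of Klk8. The strand setting of the counting is not stated, so reads of these genes and of the antisense transcript may not have been separated. The counts listed for 2310002F09Rik had a median of 3.38 CPM in aged and 3.38 CPM in adult libraries, with a log2 fold change of -0.10 (SE 0.09; edgeR adjusted p = 0.414).

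**Figure D2:**
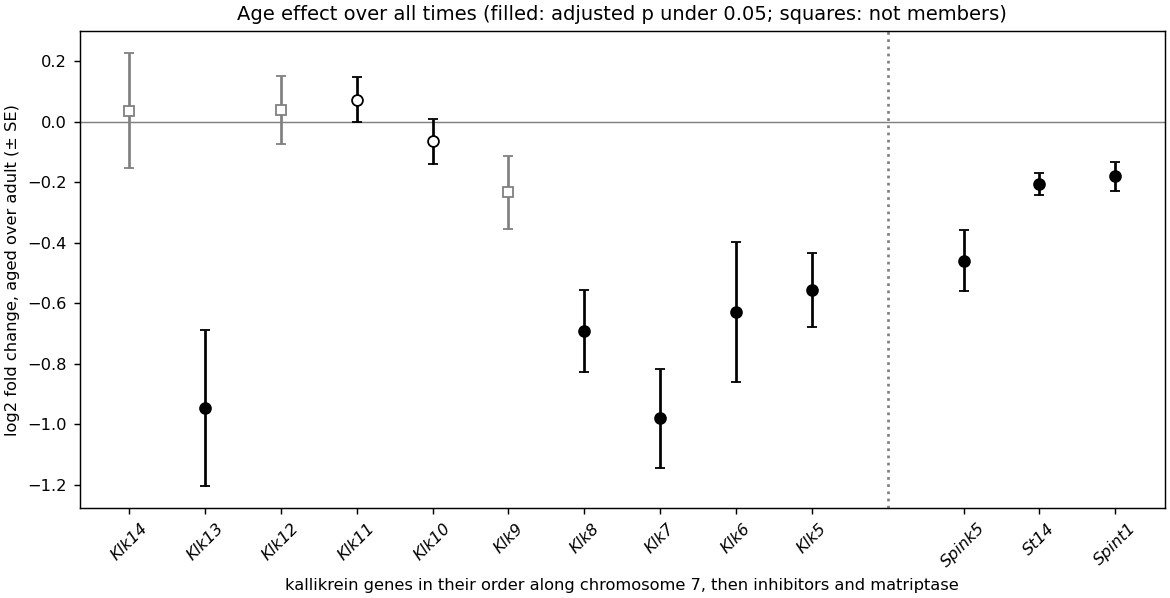
Log2 fold change of aged over adult with its SE for the tested kallikrein genes in chromosome order, then Spink5, St14 and Spint1; circles are members, squares other kallikreins, and filled symbols passed at an adjusted p under 0.05. The run from Klk8 to Klk5 lies between -0.98 and -0.56, while Klk9 to Klk12 lie between -0.23 and 0.07.

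At single times the members stood furthest apart at ZT20. There 5 of 10 were called lower (10.5% of all genes were), and in 7 of 10 every aged library lay below every adult one (13.7% of all genes). Marker lists differed at ZT20 too: 7 of 13 granular markers were lower and 1 higher (median log2 fold change -0.93), 5 of 7 spinous markers lower (-0.76), 5 of 8 hair follicle markers lower (-0.85) and 1 of 7 basal markers higher (0.33). The 6 Langerhans cell markers had a median of 0.96, with 0 past the test, and the part of these lists in the members' differences was not tested. Klk7 had 32.3, 37.8, 43.2 and 69.9 CPM in aged ZT20 libraries, against 119, 131, 159 and 159 CPM in adult ZT20 ones. The groups were far apart, with a log2 fold change of -1.63 (SE 0.40; edgeR adjusted p = 0.0052). Klk5 had 30.2, 33.4, 35.6 and 45.4 CPM in aged, against 69.0, 70.0, 89.1 and 104 CPM in adult libraries (-1.20, SE 0.31). Klk8 had 14.1, 14.6, 17.5 and 22.4 CPM in aged, against 31.0, 34.9, 44.7 and 46.9 CPM in adult libraries (-1.20, SE 0.33). No values of Klk5 or Klk8 overlapped between the ages at this time.

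Spink5 at ZT20 had 364, 372, 379 and 398 CPM in aged libraries, against 551, 640, 786 and 952 CPM in adult ones (-0.95, SE 0.25). St14 had 55.5, 56.6, 57.8 and 60.7 CPM in aged, against 62.3, 67.3, 71.5 and 74.1 CPM in adult libraries (-0.26, SE 0.09; edgeR adjusted p = 0.0387). Klk11 and Spint1 also did not overlap between the ages at ZT20 but were not called. The Klk11 values were 39.8, 46.0, 48.1 and 50.7 CPM in aged, against 55.1, 55.9, 57.2 and 58.9 CPM in adult libraries (-0.30, SE 0.18; edgeR adjusted p = 0.245). Spint1 stood at -0.32 (SE 0.12; edgeR adjusted p = 0.0510). In aged ZT20 replicates 1 and 2 the mean log2 CPM of granular markers was 4.39 and 4.33 (4.90 and 4.53 in replicates 3 and 4) and that of hair follicle markers 5.56 and 5.28 (6.14 and 5.99), and their part in the result was not tested. Of all aged libraries replicate 1 was lowest for Klk5, Klk6 and Spint1, and replicate 4, which was kept, for Klk7, Klk8 and Klk13. With replicates 1 and 2 left out, 0 members were called, and no other pair of aged ZT20 libraries was left out. The log2 fold changes were then -1.04 for Klk5, -1.48 for Klk7, -1.11 for Klk8, -0.97 for Spink5 and -0.22 for St14, with edgeR adjusted p between 0.094 and 0.255 and 2 aged libraries left. The St14 call was also lost without any 1 of 6 libraries of ZT20 (aged replicates 1, 2 and 4 and adult replicates 1, 2 and 4).

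At the other 5 times 0 members were called at an adjusted p under 0.05 (edgeR), where the share of all genes called was 4.46% (ZT0), 0.632% (ZT4), 2.19% (ZT8), 1.10% (ZT12) and 1.97% (ZT16), against 20.0% at ZT20. At ZT0 4 members did not overlap between the ages, all lower in aged, where 8.92% of all genes were lower without overlap. Klk7 there had 45.6, 48.7, 50.6 and 63.1 CPM in aged, against 67.7, 87.8, 89.0 and 128 CPM in adult libraries. At ZT8 Klk7 and Klk8 did not overlap (4.37% of all genes were lower in this way). Klk7 had 44.1, 50.2, 62.5 and 66.6 CPM in aged ZT8, against 104, 104, 115 and 223 CPM in adult ZT8 libraries. At ZT4, ZT12 and ZT16 every member overlapped, where 1.81%, 1.78% and 4.53% of all genes were lower without overlap.

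The number of members at an unadjusted p under 0.05 was 6 at ZT12 and ZT20 (15.2% and 34.7% of all genes) and 5 at ZT8 (20.1%). It was 1 at ZT0 and ZT16 (20.6% and 18.3%) and 0 at ZT4 (7.47%). DESeq2 called Klk7 at ZT8 and St14 at ZT12, and 0 members at ZT0, ZT4 and ZT16. At ZT12 the adult library of replicate 1 was low, with 65.9 CPM of Klk7 where its group had 160, 254 and 272 CPM and the aged libraries 57.3, 60.1, 82.0 and 116 CPM. Without it 5 members were called at ZT12 (Klk5, Klk7, Klk8, St14 and Spint1). In that library the spinous list mean, in log2 CPM, was 9.24 (9.72 to 10.4 in the other 3) and the granular one 4.857 (5.216 to 5.927). Lists above the others were basal at 10.493 (9.561 to 10.47), sebaceous at 4.178 (3.315 to 3.849), T cell at 3.695 (2.369 to 3.367) and Langerhans at 5.46 (2.49 to 5.41). The remaining lists lay within the range of the other 3, and the part of the lists in the result was not tested.

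**Figure D3:**
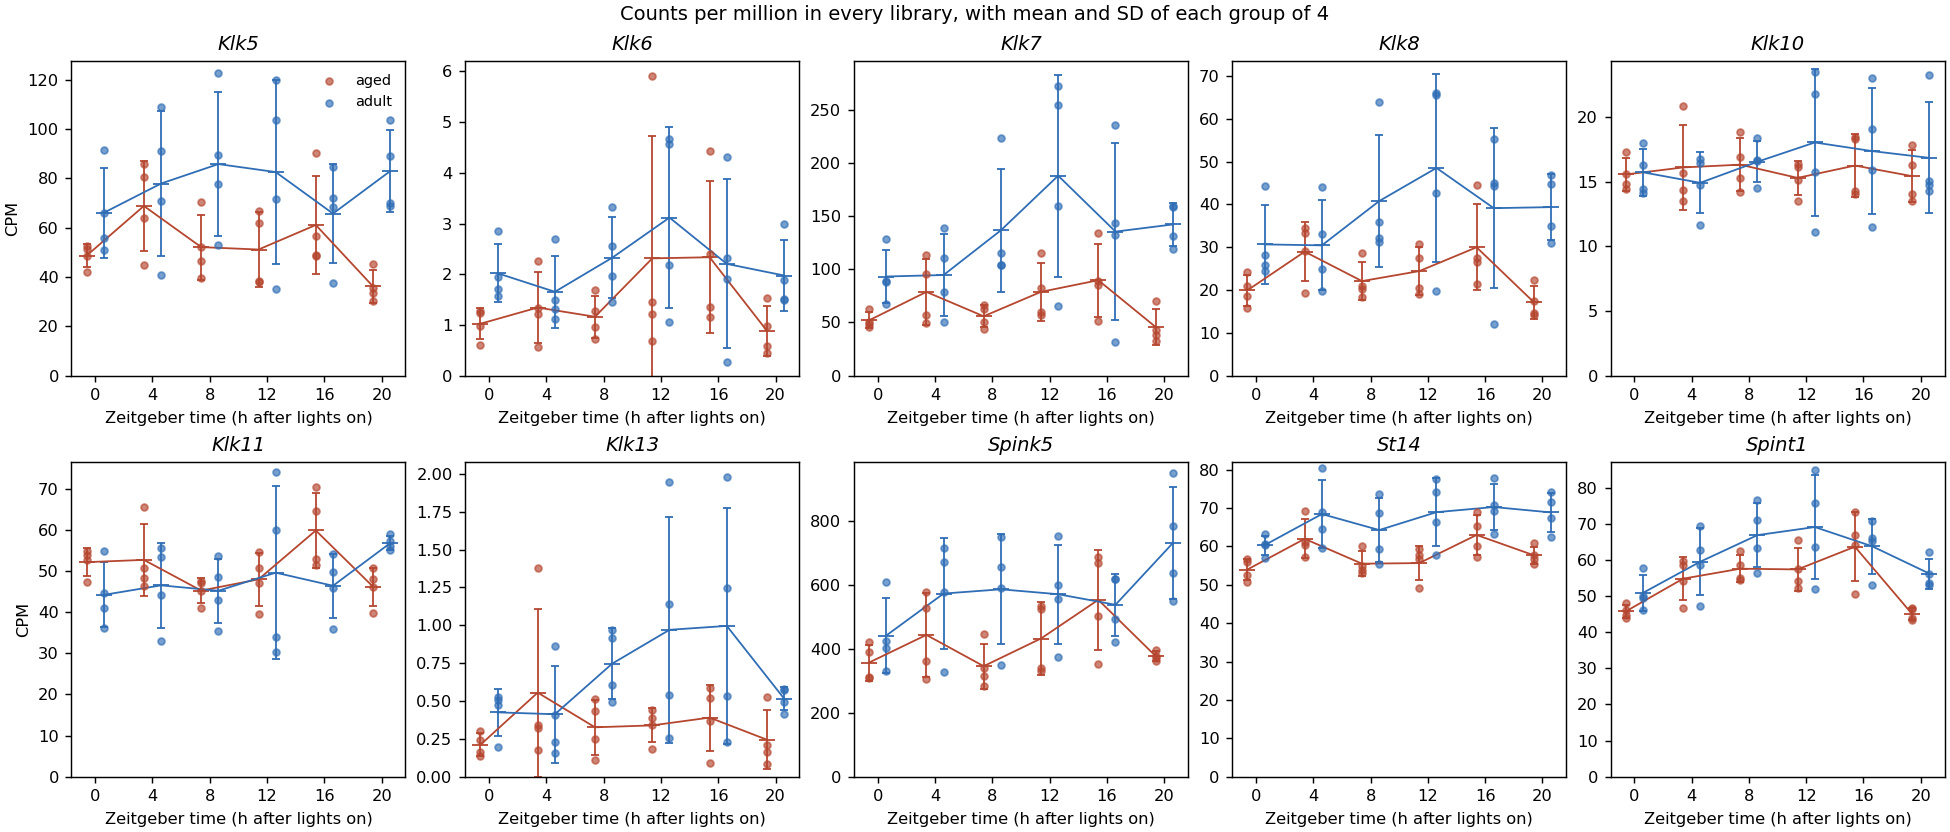
CPM of each member in every library by Zeitgeber time, aged left of adult, with the mean and SD of each group of 4 libraries and axes that start at 0. The aged Klk7 libraries of ZT20 lie between 32.3 and 69.9 CPM and the adult ones between 119 and 159 CPM, while the ages overlap at all times but ZT20 for Klk11 and at every time for Klk10.

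The age effect did not pass the test of a difference between times for any member. The joint test over the 6 times gave edgeR adjusted p between 0.360 for Spink5 and 0.891 for Klk10, with 0 members at an unadjusted p under 0.05. Over all genes 0.283% were called and 17.1% had an unadjusted p under 0.05. The larger differences at ZT20 were therefore not shown to differ from those at other times. In the fitted values Klk5, Klk7, Klk8, St14 and Spint1 were lower in aged at all 6 times, as were 9.69% of all genes. Klk7 ranged from -0.26 at ZT4 to -1.63 at ZT20, and Klk13 from 0.44 at ZT4 to -1.50 at ZT12. None of the Klk13 values passed at a single time.

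**Figure D4:**
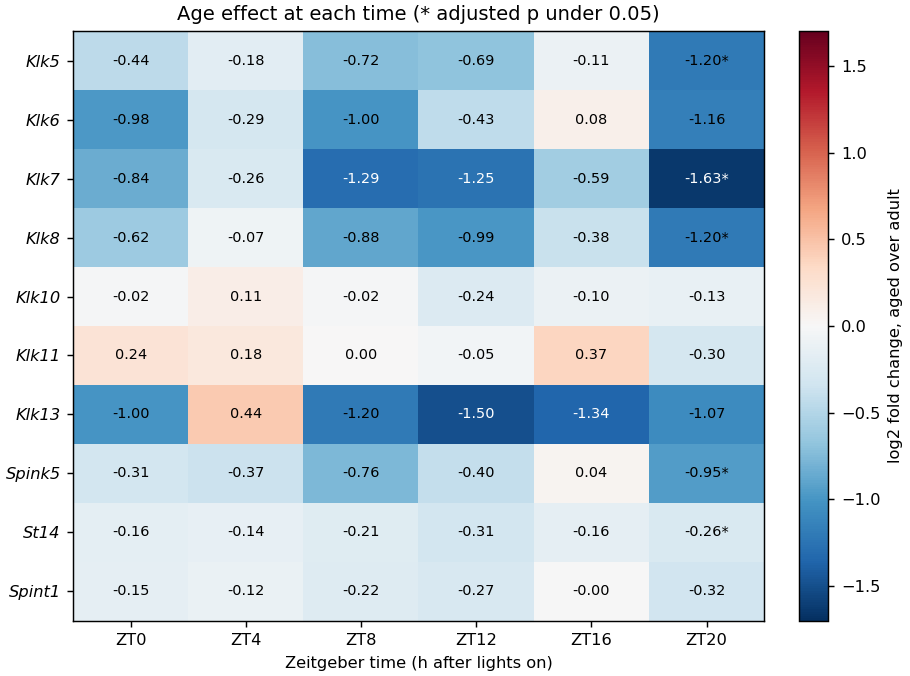
Log2 fold change of aged over adult for each member (rows) at each Zeitgeber time (columns), with an asterisk where the adjusted p was under 0.05. All 5 asterisks are at ZT20, where Klk7 is lowest at -1.63, and values at ZT4 run from -0.37 to 0.44.

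Of the 10 members 1 passed the test of a 24 h rhythm, and it did so in both ages. The fitted 24 h cosine of Spint1 had an amplitude (log2, mean to peak) of 0.21 in aged epidermis (edgeR adjusted p = 0.0252), peaking at ZT 11.3. In adult epidermis the amplitude was 0.21 (edgeR adjusted p = 0.0114), peaking at ZT 11.2. The times cover a single 24 h cycle, so a return of the pattern was not observed. Of all genes 5.87% were called rhythmic in aged and 14.6% in adult epidermis. Its group medians at ZT0, ZT8 and ZT16 were 45.4, 56.7 and 65.4 CPM in aged, against 49.7, 67.1 and 65.6 CPM in adult epidermis. The aged call was lost without aged ZT0 replicate 1, aged ZT0 replicate 2, aged ZT12 replicate 4 (adjusted p up to 0.0678) or the aged ZT20 replicates 1 and 2 (0.0712). The adult call was lost without adult ZT12 replicate 3 (adjusted p = 0.0606).

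The proteases did not pass. In adult epidermis the fitted amplitudes were 0.72 for Klk13 (edgeR adjusted p = 0.0890) and 0.45 for Klk7 (0.139), with fitted peaks at ZT 13.1 and ZT 13.5. In aged epidermis they were 0.34 for Klk13 (0.734) and 0.28 for Klk7 (0.597). Klk13 was called in adult epidermis without adult ZT12 replicate 1, adult ZT16 replicate 4 or aged ZT4 replicate 3, and Klk7 without adult ZT16 replicate 4. The rhythms of aged and adult epidermis did not pass a test of their difference for any member (edgeR adjusted p from 0.762 to 1.00). In that test 0 of all 18044 genes were called and 7.35% had an unadjusted p under 0.05, and 0 members did.

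The balance of proteases to inhibitors is given as a log2 ratio of CPM within each library, as a description without a test. CPM was not divided by length here, so a ratio compares the ages, and its sign does not say which gene was higher. Per kb of exon Spint1 had a higher median than St14, with 19.6 against 7.50 CPM per kb in aged libraries. In adult libraries these were 21.8 against 8.74 CPM per kb. Klk7 to Spink5 had a mean of -2.70 ± 0.48 in aged and -2.23 ± 0.57 in adult libraries (SD, n = 24 each). Klk5 to Spink5 had a median of -2.99 in aged (SD 0.32) and -2.88 in adult libraries (SD 0.25). St14 to Spint1 had a mean of 0.11 ± 0.20 in aged and 0.14 ± 0.16 in adult libraries. By time, the mean Klk7 to Spink5 ratio of aged minus that of adult libraries ran from -0.76 (ZT20) and -0.72 (ZT12) through -0.53 (ZT0), -0.50 (ZT8) and -0.37 (ZT16) to 0.10 (ZT4), so it was lower in aged at 5 of 6 times. Within the kallikreins, Klk7 to Klk11 had a mean of 0.32 ± 0.48 in aged and 1.32 ± 0.68 in adult libraries. Of the summed CPM per kb of the 7 kallikreins, Klk7 made up a median of 23.9% in aged and 33.0% in adult libraries, and Klk11 24.6% in aged and 17.3% in adult.

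Around the members, other genes of the same system are given from lists drawn up by function. Of 6 other kallikrein genes, Klk9, Klk12 and Klk14 could be tested and 0 passed, while Klk1, Klk4 and Klk15 had at most 3, 1 and 5 reads in any library. Of 11 other proteases of the cornified layer 5 were lower and 1 higher (edgeR, adjusted p under 0.05), with a median log2 fold change of -0.36. Prss8, which encodes the membrane protease prostasin, was lower by a log2 fold change of -0.36 (SE 0.05), the aspartic cathepsin Ctsd by -0.42 (SE 0.07) and the filaggrin-processing protease Asprv1 by -0.68 (SE 0.12). The cysteine cathepsin Ctsl was higher, by 0.50 (SE 0.09). Of 9 other inhibitors 2 were lower and 0 higher, with a median of -0.05. They were Cst6, the cystatin that restrains cysteine proteases of the cornified layer (-0.53, SE 0.09), and Spint2, a Kunitz-type relative of Spint1 (-0.19, SE 0.04).

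Of 7 substrates and receptors 4 were lower and 0 higher, with a median of -0.43. Cdsn, which encodes corneodesmosin, had medians of 74.7 CPM in aged and 114 CPM in adult libraries, a log2 fold change of -0.43 (SE 0.13; edgeR adjusted p = 0.0098). The desmosomal cadherin gene Dsc1 stood at -0.48 (SE 0.10), and the filaggrin-like gene Flg2 at -0.94 (SE 0.21). Flg, which encodes filaggrin, had medians of 1.10 CPM in aged and 2.35 CPM in adult libraries (edgeR adjusted p = 0.0052). The other 3 of this list did not pass, and their log2 fold changes lay between -0.06 and -0.04.

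Granular and hair follicle markers were mostly lower in aged epidermis, as the members were, while spinous markers were mixed and basal markers were not lower. Of 13 granular layer markers 7 were lower and 1 higher in aged epidermis (edgeR), and 4 of the list (Flg2, Casp14, Asprv1 and Cdsn) also belong to the lists above. Their summed level ran from 696 to 1850 CPM in aged libraries (median 1050), against 914 to 2860 CPM in adult libraries (median 1710). Of 7 spinous layer markers 3 were lower and 1 higher, with summed levels of 7480 to 17600 CPM in aged and 6730 to 16500 CPM in adult libraries. Of 7 basal markers 0 were lower and 2 higher, with 7910 to 17200 CPM in aged and 7980 to 14900 CPM in adult libraries. Of 8 hair follicle markers 6 were lower and 0 higher, with 1160 to 2310 CPM in aged and 1470 to 3470 CPM in adult libraries. In these bulk samples fewer cells of a type and less RNA per cell cannot be told apart, and the part of these layers in the members' differences was not tested.

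Markers of other cell types ranged widely in level. Sebaceous gland markers summed to 828 to 1630 CPM in aged and 841 to 1700 CPM in adult libraries, and 0 of 7 passed. These sums rested mainly on Scd1 and Fasn, with medians of 791 and 319 CPM in aged libraries. Mc5r, Awat1, Awat2, Elovl3 and Krt7 had medians from 2.02 to 7.06 CPM in aged libraries. The basal keratins Krt5 and Krt14 had medians of 3304 and 3167 CPM in aged and 2936 and 2495 CPM in adult libraries. Dermal fibroblast markers summed to 21.4 to 110 CPM in aged and 22.0 to 85.9 CPM in adult libraries, with 1 of 7 higher and 0 lower. The gene called was Sparc, with a median of 36.5 CPM in aged libraries, where the median sum was 44.1 CPM. The other 6 had aged medians from 0.126 to 3.68 CPM. Of 6 Langerhans cell markers 1 was lower, with sums of 105 to 412 CPM in aged and 147 to 457 CPM in adult libraries. That gene was Epcam (log2 fold change -0.26, SE 0.05), and the others lay between -0.13 and 0.08. Of 5 melanocyte markers 1 was higher (31.8 to 68.2 CPM in aged, 32.9 to 68.5 CPM in adult), and of 5 T cell, 4 endothelial and 3 muscle markers tested 0 passed. Lum, Mlana, Cdh5, Kdr, Myh4 and Tnnt3 had no read in at least 1 library.

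Members also varied together between libraries of the same group. Log2 CPM was centred on its group mean, and correlations over the 48 libraries are given as a description, since the libraries share preparation and depth effects. All 45 pairs of members had a Pearson r above 0, from 0.04 between Klk11 and Klk13 to 0.92 between Klk7 and Klk8. Of these 27 were above 0.5, and the share among all pairs of genes was not computed. By rank (Spearman rho) Klk11 with Klk13 had -0.04 and Klk10 with Spink5 had -0.08. Klk5 went with Spink5 (0.88) and Spint1 (0.87), and Klk6, Klk10 and Klk13 with Klk7 (0.763, 0.726 and 0.705). Spink5 had an r of 0.11 with Klk13, 0.09 with Klk10 and 0.17 with Klk6.

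The marker lists went with different members, but the spinous and granular lists both went with Spink5, Klk5, Spint1, Klk8 and Klk7. The spinous list had an r of 0.94 with Spink5, 0.93 with Klk5, 0.87 with Spint1, 0.71 with Klk8 and 0.70 with Klk11. It had 0.59 with Klk7, 0.20 with Klk10 and 0.16 with Klk13. The granular list had 0.83 with Spink5, 0.82 with Klk5, 0.705 with Klk8, 0.68 with Spint1 and 0.65 with Klk7, but 0.30 with Klk11. The dermal fibroblast list had 0.68 with Klk13, 0.56 with Klk6 and 0.54 with Klk10, against -0.46 with Spink5, and the hair follicle list had 0.57 with Klk10 and 0.56 with Klk6. For Klk13 the r with the skeletal muscle (0.68), endothelial (0.64) and melanocyte (0.63) lists was near that with the fibroblast list. The fibroblast list itself had 0.93 with the melanocyte, 0.73 with the muscle and 0.72 with the endothelial list. The Langerhans cell list had -0.77 with Klk11, -0.71 with Spink5 and -0.71 with Spint1, and the T cell list -0.71 with Spink5. All 10 members went against the basal list, with r from -0.46 for Klk10 to -0.74 for Spint1.

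**Figure D5:**
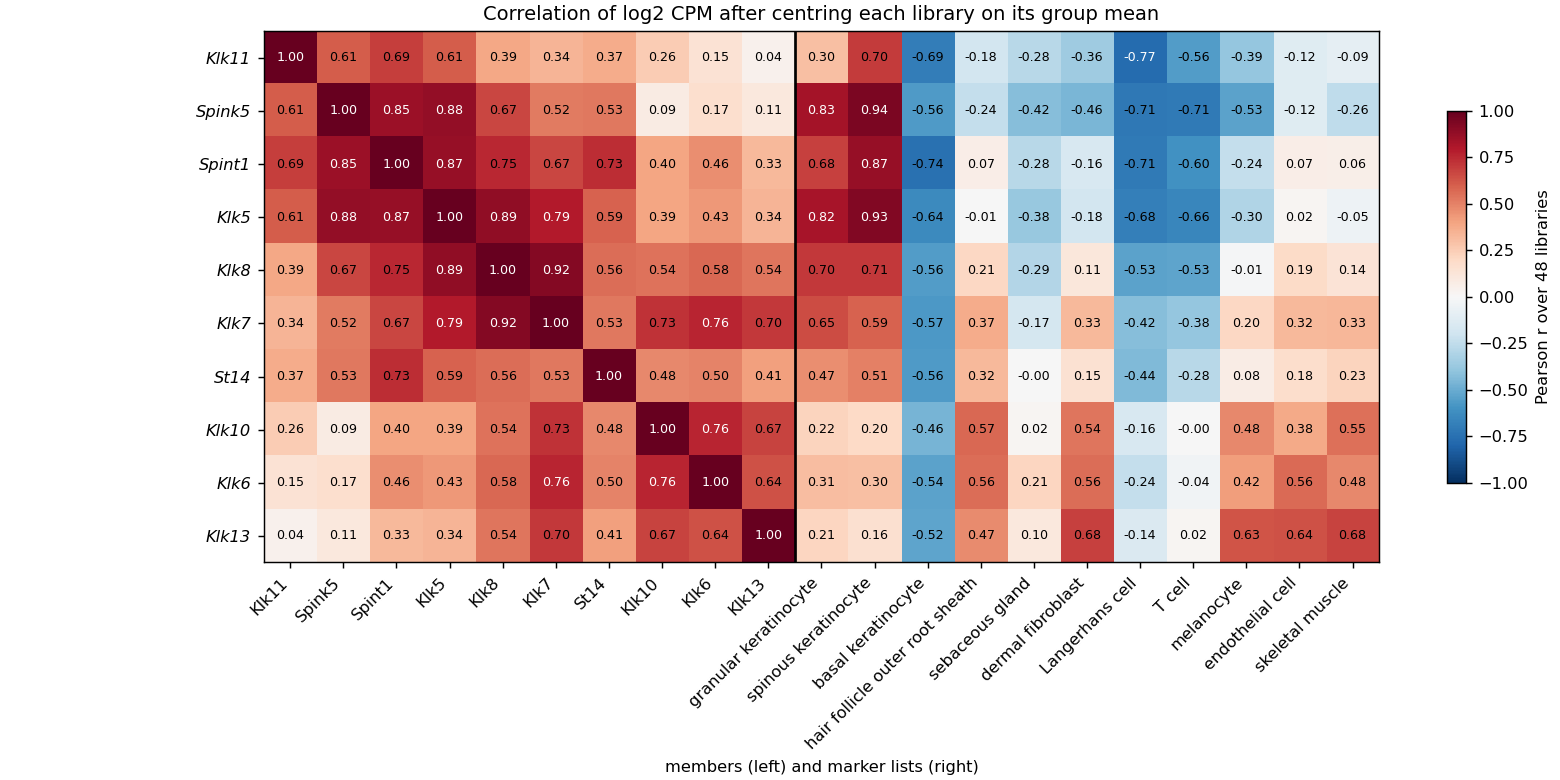
Pearson r over 48 libraries between members (rows) and members or marker lists (columns, split by the black line), computed on log2 CPM centred on each group's mean. Spink5, Spint1 and Klk5 go with the spinous and granular lists and against the Langerhans and T cell lists, and Klk13 goes with the fibroblast, muscle, endothelial and melanocyte lists.

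The genes most like each member were found by the same centred correlation among 12893 named genes. Klk5 was closest to the skin phospholipase Pla2g2f (Pearson r 0.95, Spearman rho 0.96) and the bleomycin hydrolase Blmh (0.95 and 0.94), which breaks down filaggrin. Klk7 was closest to Flg (0.88 and 0.84) and the cornification caspase Casp14 (0.87 and 0.82), and Klk8 to Rcn1 (0.87 and 0.88). Spink5 was closest to the triglyceride enzyme Dgat2 (0.96 and 0.94), and Klk6 to the cornified envelope precursor Sprr1a (0.86 and 0.78). Klk11 was closest to the mitochondrial myosin Myo19 (0.94 and 0.94), and Klk10 to Pi15 (0.83 and 0.84). Klk13 was closest to the heparan sulfate sulfatase Sulf2 (0.84 and 0.82), St14 to the retinol dehydrogenase Dhrs9 (0.79 and 0.76), and Spint1 to the phospholipase Liph (0.94 and 0.92).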

How the data were processed

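RNA from 48 libraries of mouse epidermis (4 for each age and time) had been sequenced with a stranded total RNA kit after removal of ribosomal RNA, per the labels' protocols. The deposited values are raw counts per Entrez gene, made by the authors with Trim Galore, STAR 2.7.10a and featureCounts on mm10 (GRCm38), per the submitters' processing notes. Total counts per library ran from 40761084 to 49229498 (median 45299730), so a count of 0 at the lowest depth allows up to 3 counts, or 0.0736 CPM, counting error only. RefSeq's GRCm38 gene table named 23476 identifiers; the others held 3.66% of counts and stayed in the tests.

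Counts were tested with edgeR 4.0.16 in R 4.3.3: filterByExpr (minimum count 10, minimum total 15), TMM scaling and robust quasi-likelihood fits of the 12 groups (36 residual df) or of a 24 h cosine in each age (42 df). P-values are two-sided and Benjamini-Hochberg adjusted over 18044 genes. Log2 CPM used a prior count of 2, and lengths are the union of GENCODE M21 exons. Steps were tested on simulated data. The members, lists and tests were chosen with earlier results of these data known; all members are named, and up to 4 genes per list by the smallest p for age. Lists were described by counts and medians and given no test. Replicate numbers did not pair libraries, and no replicate pair agreed within counting noise (chi-square per gene of 9.84 or more). Alternatives were DESeq2 1.42.0, its size factors in edgeR, no filter, a replicate block, parts of the samples and leaving out each library.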

Additional observations from a re-analysis of the deposited data

Results flagged for a closer look

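Within groups of 4, a library was looked for whose log2 CPM lay far from the other 3. This happened in 4 of 120 groups, where chance gives about 6 (1 in 20). Klk7 had 223 CPM in adult ZT8 replicate 4, against 104 to 115 CPM in the other 3 libraries. Klk8 had 12.1 CPM in adult ZT16 replicate 4, against 44.3 to 55.3 CPM in the others. That library was also the lowest adult one for Klk6 and Klk7, and its granular list mean was 4.53 log2 CPM, against 4.83 to 5.84 in the others of its group. It was also below them for the spinous (9.401, against 9.655 to 9.832), hair follicle (6.091, 6.431 to 6.95), fibroblast (-0.801, -0.462 to 2.272) and endothelial lists (-2.746, -1.894 to -0.661). For the basal (10.539, 10.22 to 10.384) and Langerhans cell lists (5.204, 4.229 to 4.768) it was above them, and the part of these lists was not tested. Klk10 had 23.3 CPM in adult ZT20 replicate 3, against 14.3 to 15.1 CPM. Klk13 had 0.197 CPM in adult ZT0 replicate 4, against 0.471 to 0.523 CPM. No difference of the age effect between times, or of the rhythm between ages, passed for a member.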

How the results depend on the processing

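The members called lower over all times stayed at 8 with DESeq2, with its size factors, without the filter and with a replicate block. They were 6 without ZT20 (Klk6 and Spint1 lost), 7 without aged ZT20 replicates 1 and 2 (Klk6 lost), and 7 to 8 when 1 library was left out. Klk6 also missed (adjusted p = 0.0776) without replicates 1 and 2 of ZT20 in both ages, a choice made after seeing the data. No member reversed under any alternative run. Replicate numbers did not pair the libraries (mean r of -0.02 between same-numbered libraries, and 5 of 48 correlated best with their own number), and the block left the counts at 8 over all times and 5 at ZT20. Over all genes, 3461 were called over all times without ZT20, where 5976 were with it. Fitting only the libraries of 1 time gave 2 members at ZT0 (Klk6 and Klk7) and 2407, 24, 157, 8 and 28 genes at ZT0, ZT4, ZT8, ZT12 and ZT16. DESeq2 called 1 member at ZT8, 1 at ZT12, and 177, 597, 349 and 690 genes at ZT4, ZT8, ZT12 and ZT16. Without aged ZT20 replicates 1 and 2 there were 0 members and 463 genes at ZT20, 13 genes for age by time and 0 members for the aged rhythm. Without the filter 29 genes passed for age by time. Leaving out 1 library at a time, the lowest and highest counts of genes were 415 and 1063 at ZT0, 50 and 124 at ZT4, 77 and 1141 at ZT8, 80 and 1356 at ZT12, 142 and 622 at ZT16, 1769 and 3955 at ZT20, 13 and 268 for age by time and 0 and 9 for the rhythm difference. Members ran from 0 to 2 at ZT8 (Klk7 and Spink5 without adult ZT8 replicate 2), 0 to 5 at ZT12, 4 to 6 at ZT20, 0 to 1 for the aged rhythm and 0 to 3 for the adult rhythm. The cause of these changes was not tested. Depth limits Klk13 and Klk6 most.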
